A study of Mus musculus with 25 samples.

Results

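The mouse genes of the heat shock protein and DnaJ chaperone families were followed in the Achilles tendon of wild type and AMPKcKO mice that lived with cage activity or ran on wheels. Members were all genes whose symbol in the deposited table begins with Hspa, Hspb, Hspd, Hspe or Hsph and a digit, with Hsp90, or with Dnaja, Dnajb or Dnajc and a digit, processed pseudogenes left out. The rule found 73 genes of 55487, and 67 of them had enough counts to be tested, among 19155 genes tested in all. It used no measured value. AMPKcKO, written cKO here, marks a conditional knock-out. By its title the series concerns AMPKα1, which Prkaa1 encodes and which carries the kinase activity of AMPK, a sensor of low cellular energy. All mice were 3 months old. Bulk RNA was sequenced in 25 libraries, with 7 for WT cage (4 female, 3 male) and 6 each for WT running, cKO cage and cKO running (3 of each sex). The sources used here do not give the promoter that drives Cre, the exons removed, or how long the mice ran. The labels number the libraries within a group without stating that each came from its own mouse, so p-values measure the spread between these libraries.

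Heat shock proteins and their DnaJ partners hold newly made or damaged proteins and help them to fold, move between compartments or reach degradation. HSP70 proteins bind exposed stretches of a client and release them as they exchange nucleotides. J proteins bring the client and start the cycle, and HSP110 proteins help to end it. HSP90 proteins act later on a narrower set of clients, the HSP60 and HSP10 chaperonin folds proteins inside mitochondria, and small heat shock proteins hold clients without using ATP. Several members are made at all times and others mainly under heat, load or oxidative stress, through heat shock factors that bind repeats of the bases nGAAn. Skeletal muscle, which can adhere to a dissected tendon, is rich in small heat shock proteins.

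The members that passed the test for running were Hspa1b and Hspa1a, which encode the stress-inducible HSP70 of the cytosol, and Hspd1, which encodes mitochondrial HSP60. Their promoters are printed because the first 2 genes rose together and the other fell. Each sequence is RefSeq's for GRCm38.p6, the 250 bases before an annotated start, written 5′ to 3′ on the strand of the gene. Capitals mark matches to the paired unit GAANNTTC or TTCNNGAA. Each of those motifs reads the same on both strands.
Hspa1b, chr17:34959239-34959488, minus strand: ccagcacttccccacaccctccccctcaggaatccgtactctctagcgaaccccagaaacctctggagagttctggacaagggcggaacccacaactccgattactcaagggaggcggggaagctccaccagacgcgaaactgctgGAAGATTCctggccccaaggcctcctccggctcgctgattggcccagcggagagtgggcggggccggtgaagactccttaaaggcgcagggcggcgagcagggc
Hspa1a, chr17:34972157-34972406, minus strand: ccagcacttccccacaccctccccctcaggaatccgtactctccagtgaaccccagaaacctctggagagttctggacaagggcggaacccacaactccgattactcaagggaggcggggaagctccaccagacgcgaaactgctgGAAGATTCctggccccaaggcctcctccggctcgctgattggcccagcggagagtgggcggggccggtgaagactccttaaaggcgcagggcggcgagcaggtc
Hspd1, chr1:55087933-55088182, minus strand: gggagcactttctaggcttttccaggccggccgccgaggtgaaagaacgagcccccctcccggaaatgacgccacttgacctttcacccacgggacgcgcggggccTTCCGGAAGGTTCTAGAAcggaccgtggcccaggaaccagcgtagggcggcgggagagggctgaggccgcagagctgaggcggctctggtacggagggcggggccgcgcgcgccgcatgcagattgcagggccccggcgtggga

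The promoters of Hspa1a and Hspa1b are near copies. They were identical at 98.8% of the 250 bases, with 3 substitutions (C44T, T47C and T249G), where the Hspa1a base comes first and positions count from the 5′ end of the window. Each holds 1 paired unit that begins 104 bases before the start. The Hspd1 window holds 3 overlapping paired units, the first at 144 bases before that start. RefSeq's window for Hspe1, which encodes the HSP10 partner and is read in the opposite direction, overlaps that of Hspd1 by 285 bases, counted over windows that also take in 50 bases after each start, and holds the same 3 matches. RefSeq lists a second Hspd1 start, whose window holds none.

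Promoters were found for 58 of the 73 members, in 75 of these longer windows. A member counts if any of its windows holds a match. Over these windows, on both strands, the paired unit was present in 15.1% of all 32851 promoters and in 18 of the 75 member windows (24%). By gene it was present at 16 of the 58 members (27.6%). The longer motif of 3 units (GAANNTTC followed by NNGAA, or TTCNNGAA followed by NNTTC) was present in 0.603% of all promoters and in 6 member windows (8%). By gene these were 4 of the 58 members (6.9%), namely Hspd1, Hspe1, Hsph1 and Dnajb6. Every 3-unit match also counts as a paired unit. Hspd1 and Hspe1 share their matches, the windows of Hsph1 overlap each other, and so do those of Dnajb6. These windows are therefore not independent. The shares of all promoters count windows, so the shares by gene have no like background. The ER stress element was present in 0.119% of all promoters and in 3 member windows (4%). These belong to 3 members (5.17%), the ER chaperone genes Hspa5, Hsp90b1 and Dnajc3. These are matches of letters, and binding was not measured.

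Library totals ran from 13193228 to 45724243 counts, with a median of 24538109. Prkaa1, the targeted gene, stood at 13.4 to 31.2 CPM (counts scaled to the size of the library) in the WT libraries and at 13.9 to 22.6 CPM in the cKO libraries. Its log2 fold change of cKO against WT over both activities was -0.36 ± 0.12 (edgeR, unadjusted p = 0.00485, adjusted p = 0.981). Cre was counted in 11 of the 12 cKO libraries and in no WT library, and the reporter eGFP was above 50 CPM in all 6 cKO running, 2 cKO cage and 1 WT running libraries. All 10 tendon cell markers checked, Scx, Tnmd and Col1a1 among them, were counted in every group and took 0.535% to 2.85% of counts. Scx followed the reporter, at 105 to 208 CPM in libraries with eGFP above 50 CPM and 11.5 to 41 CPM in the others. The reason was not tested. A list of 30 skeletal muscle fibre genes took a median of 5.77% of counts in WT cage (range 2.37% to 7.5%), 7.08% in WT running (4.59% to 9.53%), 6.3% in cKO cage (4.34% to 7.23%) and 4.75% in cKO running (1.98% to 7.53%). Mitochondrial ribosomal RNA took a median of 25.2% of counts in WT cage, 19.6% in WT running, 25.5% in cKO cage and 19.4% in cKO running. WT running female replicate 2 and WT running male replicate 3 stood apart in earlier results of these data. Reporter counts differed from the other libraries of the genotype in cKO cage female 3 (no Cre count) and WT running male 2 (eGFP at 119 CPM, no Cre count). The labels do not say which mice carry eGFP. Library names of WT cage female 4 and cKO cage male 3 carry another project prefix than the rest, and both are cage libraries. The meaning of the prefix is not stated. Without these libraries, edgeR called Hspa1b (0.57, adjusted p = 0.00409), Hspd1 (-0.48, adjusted p = 0.0263) and Hspa1a (0.57, adjusted p = 0.0469) for running in the mean of both genotypes.

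Levels of different genes were compared on the deposited FPKM scale, which corrects for transcript length. Of the 73 members, 63 had a mean of at least 1 FPKM over the 25 libraries, 40 had at least 10 and 7 had at least 100. The lowest members in these counts stood at percentiles 72.8 (Dnajc12), 87.8 (Dnajc5) and 98.6 (Hsp90b1) of all genes with any FPKM. The samples also held muscle fibre transcripts, and Hspb6 and Hspb7 followed that signal, as given below. The highest was Hspb6, which encodes the small heat shock protein HSP20, with a mean of 876 FPKM and a range of 194 to 1664. Hspb7, a small heat shock protein of heart and skeletal muscle, followed at 412 FPKM (137 to 720). Hspa8, the constitutive HSP70, stood at 376 FPKM (276 to 452) and Hsp90ab1, the constitutive HSP90, at 365 FPKM (237 to 492). Hspb1, Hspa9 and Hsp90b1 made up the rest of the 7, at 142, 108 and 100.2 FPKM. The inducible pair was far lower, with means of 12 FPKM for Hspa1a and 9.88 FPKM for Hspa1b. Dnajb1, the J protein best known from the heat shock response, stood at 3.48 FPKM.

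**Figure D1:**
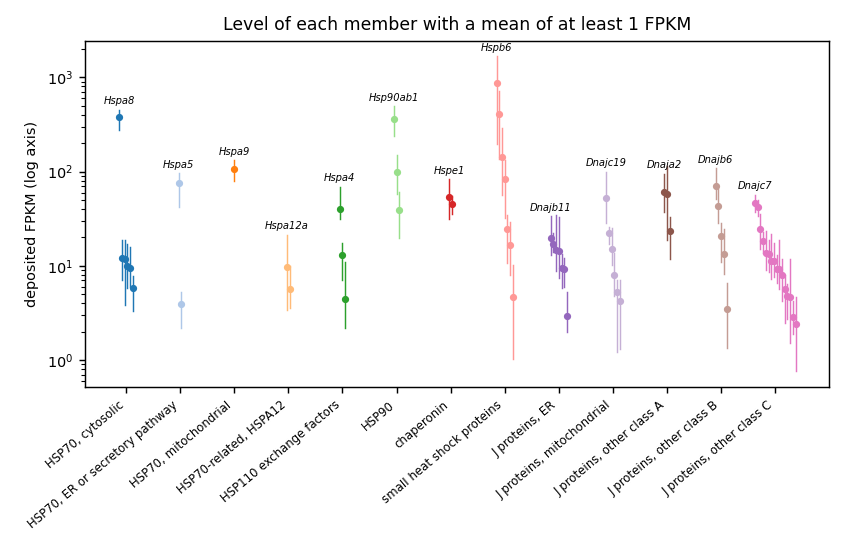
Deposited FPKM (log axis) of the 63 members with a mean of at least 1 FPKM, grouped by role. Points are means over 25 libraries and lines run from the lowest to the highest library; the highest member of each role is named, and Hspb6 stands highest at 876 FPKM with a wide range of 194 to 1664.

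Spread between libraries also differed. Libraries lay close together for Hspa8 and for Dnajc7, a cytosolic J protein with repeats that bind HSP70 and HSP90 (37.1 to 56.8 FPKM). They lay far apart for Hspb6 and for Dnaja4 (18.7 to 116 FPKM). Under 1 FPKM were 10 members, among them Hspb9, Dnajb13, Dnajb3, Dnajb7 and Dnajc6. The 6 untested members also lie there. Of these, Dnajb3 had a total of 134 counts over the 25 libraries, Dnajc5g 27, Dnajc22 15, Dnajb8 2 and Dnajc5b 1. Together the 73 members took a median of 6315 CPM in WT cage, 7813 CPM in WT running, 6010 CPM in cKO cage and 5825 CPM in cKO running, and the 4 groups overlapped.

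Few chaperone genes were called for wheel running. Running was set against cage activity in the mean of both genotypes, with a term for sex, by edgeR's quasi-likelihood test. It called 3 of 67 members (4.48%) at an adjusted p under 0.05, against 1.43% of all genes (0.611% higher and 0.814% lower). Hspa1b and Hspa1a, which short reads cannot fully separate, rose and Hspd1 fell. At an unadjusted p under 0.05 stood 20 members (29.9%) and 14.9% of all genes. The log2 fold change was positive in 26 members and negative in 41, with a median of -0.05 beside 0.01 for all genes. On log2(FPKM + 1), where the median of all genes moved to 0.11, 45 of 67 members were positive with a median of 0.06, and with a term for mitochondrial ribosomal RNA 34 were. The split of signs therefore depends on the scale. Fold changes were also positive in 8 of 8 macrophage markers (median 0.52) and 7 of 7 Schwann cell markers (median 1.25), none called, and the part of these cells was not tested. DESeq2 called 6 members (and 3.33% of all genes) and limma-voom with library weights called 12 (and 4.76%). In a bulk sample, fewer cells of a type and less RNA per cell cannot be told apart, and this holds for every fold change here.

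**Figure D2:**
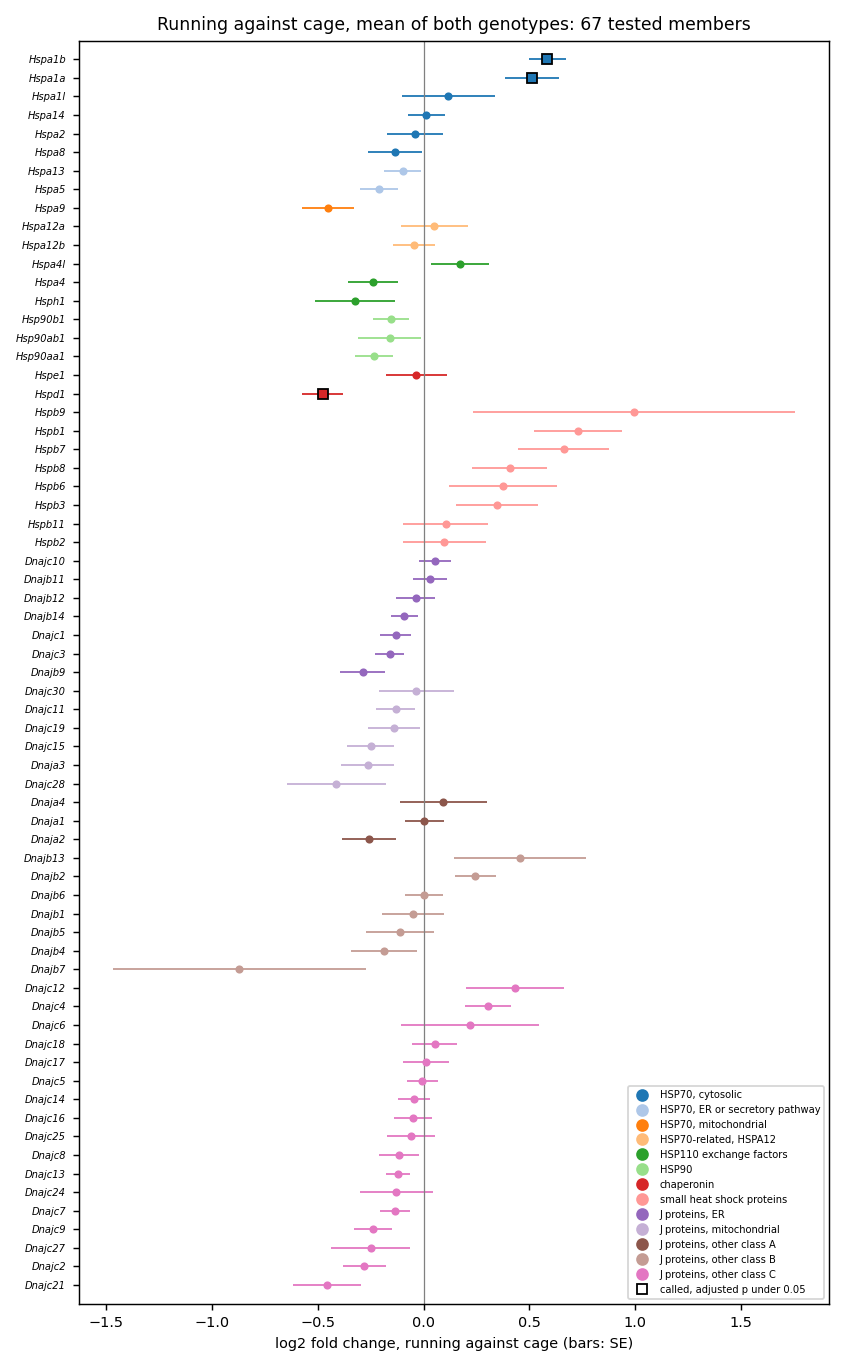
Log2 fold change of running against cage (horizontal axis, mean of both genotypes, bars are SE) for the 67 tested members, coloured by role and sorted within it. Squares with a black edge are the 3 called members, Hspa1b and Hspa1a to the right and Hspd1 to the left. All 8 Hspb genes, listed as small heat shock proteins, lie to the right of 0 and all 6 mitochondrial J protein genes to the left.

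Hspa1b (ENSMUSG00000090877, chromosome 17, 34956436 to 34959238, minus strand, GRCm38) showed the firmest response. Lowest, median and highest levels were 17.8, 20.8 and 25 CPM in WT cage, 25.7, 28.1 and 41.7 CPM in WT running, 16.4, 20.1 and 21.3 CPM in cKO cage, and 21.5, 30.7 and 34.8 CPM in cKO running. Within each genotype every running library lay above every cage library. Such separation held for 0.543% of all genes in WT and 0.887% in cKO. Over all 25 libraries the activity groups overlapped, as they did for all but 0.0261% of genes, because cKO running female replicate 2 stood at 21.5 CPM, below some WT cage libraries. The log2 fold change was 0.59 ± 0.09 (SE, adjusted p = 0.000682), rank 9 of all genes. The call was kept with each library left out in turn (0.54 to 0.62). It was lost with a term for eGFP carriage (0.51, adjusted p = 0.0906), in females alone (0.62, adjusted p = 0.146) and in males alone (0.56, adjusted p = 0.0502).

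Hspa1a (ENSMUSG00000091971, chromosome 17, 34969190 to 34972156, minus strand), its neighbour 9951 bases away, moved the same way with more scatter. It stood at 15.8, 29.4 and 36.4 CPM in WT cage and at 33.6, 40.3 and 48 CPM in WT running, again as lowest, median and highest. In the cKO it stood at 21.5, 26.6 and 33.1 CPM at cage activity and at 24.1, 34.1 and 53 CPM in runners. Cage and running libraries overlapped in both genotypes. The log2 fold change was 0.51 ± 0.13 (adjusted p = 0.0423). The call was lost in 15 of the 25 fits that leave out a library, where the adjusted p reached 0.0906 at most (without WT running male replicate 2). Those 15 were WT cage female 3 and male 1, all 3 WT running females, WT running males 2 and 3, all 3 cKO cage females, cKO cage males 1 and 3, cKO running females 3 and 4 and cKO running male 1, and their fold changes were 0.44 to 0.52. It was also lost with the replicate number as a block (0.51, adjusted p = 0.0521) and without the 2 libraries that stood apart (adjusted p = 0.086). Without the 2 whose reporter counts differed from others of their genotype, the call was lost too (adjusted p = 0.106). Terms for mitochondrial ribosomal RNA (adjusted p = 0.105) or eGFP (0.324) and fits of females (0.72, adjusted p = 0.263) or males alone (0.32, adjusted p = 0.277) ended it as well.

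The 2 genes cannot be fully separated by short reads. Of the stretches of 50 bases in their transcripts, 58.8% of those of Hspa1a occur in Hspa1b and 62.3% of those of Hspa1b occur in Hspa1a. Their counts were therefore also summed, a choice made after seeing the data. The sum stood at a median of 50.6 CPM in WT cage, 68.5 in WT running, 45.3 in cKO cage and 67.5 in cKO running. Its log2 fold change was 0.55 ± 0.09 (edgeR, adjusted p = 0.00327). The third cytosolic gene of that cluster, Hspa1l, which is best known from testis, had 0.12 ± 0.22 (adjusted p = 0.858), and 71.4% of its stretches occur in the overlapping gene Gm10501. Hspa8 had -0.13 ± 0.13 (adjusted p = 0.679).

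In the mean of both genotypes, mitochondrial chaperone genes lay on the lower side in runners. Hspd1 (ENSMUSG00000025980, chromosome 1, 55077835 to 55088243, minus strand) stood at 73.9, 91.9 and 110 CPM in WT cage and at 60.4, 65.2 and 101.4 CPM in WT running. It stood at 79.2, 95 and 130 CPM in cKO cage and at 52.1, 63.5 and 74.4 CPM in cKO running. The WT groups overlapped through WT running female replicate 3 and male replicate 1, and in the cKO every runner lay below every cage library. The log2 fold change was -0.48 ± 0.10 (adjusted p = 0.0107), and the call was kept with each library left out in turn (-0.52 to -0.43). It was lost with a term for mitochondrial ribosomal RNA (-0.34, adjusted p = 0.105), with a term for eGFP (-0.41, adjusted p = 0.255), and in females (-0.35, adjusted p = 0.442) or males alone (-0.57, adjusted p = 0.0976). Mitochondrial ribosomal RNA moved with activity as given above, and its part in the result was not tested.

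Hspe1 (chromosome 1, 55088132 to 55091307, plus strand) shares its promoter region with Hspd1 but had a log2 fold change of -0.03 ± 0.15 (adjusted p = 0.942). The gene spans overlap by 112 bases on opposite strands, the strand of the libraries is not stated, and 42.1% of the 50-base stretches of Hspd1 occur in another gene, mostly the pseudogene Hspd1-ps3. Hspa9, the mitochondrial HSP70 that pulls proteins through the import channel, stood at 225, 326 and 374 CPM in WT cage, 164, 279 and 351 CPM in WT running, 271, 351 and 498 CPM in cKO cage and 175, 235 and 272 CPM in cKO running. The groups overlapped. Its log2 fold change of -0.45 ± 0.12 did not pass by edgeR (adjusted p = 0.0668). It was called by DESeq2 (adjusted p = 0.0126), limma-voom (0.00733) and limma on log2(FPKM + 1) (0.0389), and by edgeR without a filter on low counts (0.019), without WT cage female replicate 1 (-0.49, adjusted p = 0.0265) or without WT running male replicate 1 (-0.48, adjusted p = 0.0449).

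The 6 mitochondrial J protein genes all had negative fold changes in the mean of both genotypes, with a median of -0.19, and none was called. They include Dnaja3 (-0.26 ± 0.12), a partner of Hspa9, and Dnajc15 (-0.25 ± 0.11) and Dnajc19 (-0.14 ± 0.12), which work at the import motor. A related list of 11 mitochondrial folding and proteolysis genes outside the families was negative in 11 of 11, with a median of -0.13 and no call. Adjusted p-values of the 3 J protein genes named were 0.319, 0.278 and 0.641. By genotype, 3 of the 6 mitochondrial J protein genes were negative in WT (median -0.00) and all 6 in the cKO (median -0.39). Of the related list, 7 of 11 were negative in WT and 10 of 11 in the cKO.

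**Figure D3:**
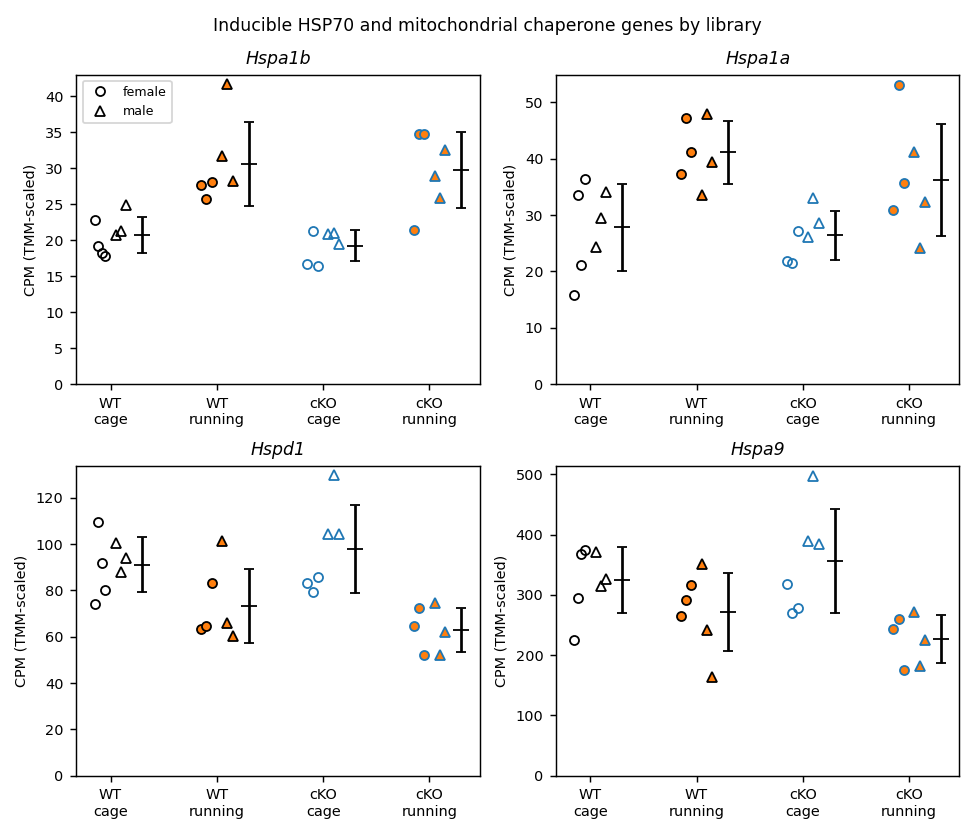
CPM (TMM-scaled) of Hspa1b, Hspa1a, Hspd1 and Hspa9 in each of the 25 libraries by genotype and activity. Circles are females and triangles males, filled symbols are runners, and the bar beside each group is its mean ± SD; runners lie above cage libraries of their own genotype for Hspa1b, while Hspd1 in cKO runners (52.1 to 74.4 CPM) lies below all cKO cage libraries.

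All 8 Hspb genes tested, listed here as small heat shock proteins, had positive fold changes with running (median 0.39), and edgeR called none. The 8 include the scarce Hspb9, and Hspb11, both described below. With a term for mitochondrial ribosomal RNA 7 of 8 were positive, and in males alone 5 of 7. DESeq2 called Hspb1 and Hspb7 (adjusted p = 0.0159 and 0.0339), limma on log2(FPKM + 1) called the same pair (adjusted p = 0.0395 and 0.0324), and limma-voom called Hspb1, Hspb7 and Hspb8 (adjusted p = 0.00371, 0.00631 and 0.0278). Hspb1 (chromosome 5, 135887919 to 135889563, plus strand), which encodes the stress-inducible HSP25 that binds actin filaments, stood at 33.8, 75.9 and 107 CPM in WT cage and 99.2, 121 and 182 CPM in WT running. In the cKO it stood at 53.8, 68.7 and 107 CPM at cage activity and 26.9, 109 and 186 CPM in runners. In WT only the highest cage library reached into the runners' range, while in the cKO cKO running male replicate 2 lay below all cage libraries. The log2 fold change was 0.73 ± 0.21 (adjusted p = 0.0787). It passed with that library left out (0.85 ± 0.16, adjusted p = 0.00715).

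Hspb7 stood at a median of 866 CPM in WT cage, 1566 in WT running, 798 in cKO cage and 1062 in cKO running, and its fold change was 0.66 ± 0.21 (adjusted p = 0.128). Hspb8, which works with the co-chaperone Bag3 in the removal of damaged filament proteins, stood at 119, 174, 105 and 129 CPM in the same order (0.41 ± 0.18, adjusted p = 0.275). Hspb6 stood at 916, 1489, 788 and 881 CPM (0.38 ± 0.26, adjusted p = 0.518). Their cKO runners were widely scattered, for Hspb6 from 157 to 1457 CPM, and overlapped the cKO cage libraries. Hspb3 and Hspb2, both muscle-enriched, had 0.35 ± 0.20 and 0.10 ± 0.20. Hspb9, at no more than 1.07 CPM in any library, had 1.00 ± 0.76. Hspb11, which is a transport protein of cilia despite its symbol, had 0.10 ± 0.20. Of the 50-base stretches of Hspb1, 50.1% occur elsewhere, mostly in Hsp25-ps1.

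**Figure D4:**
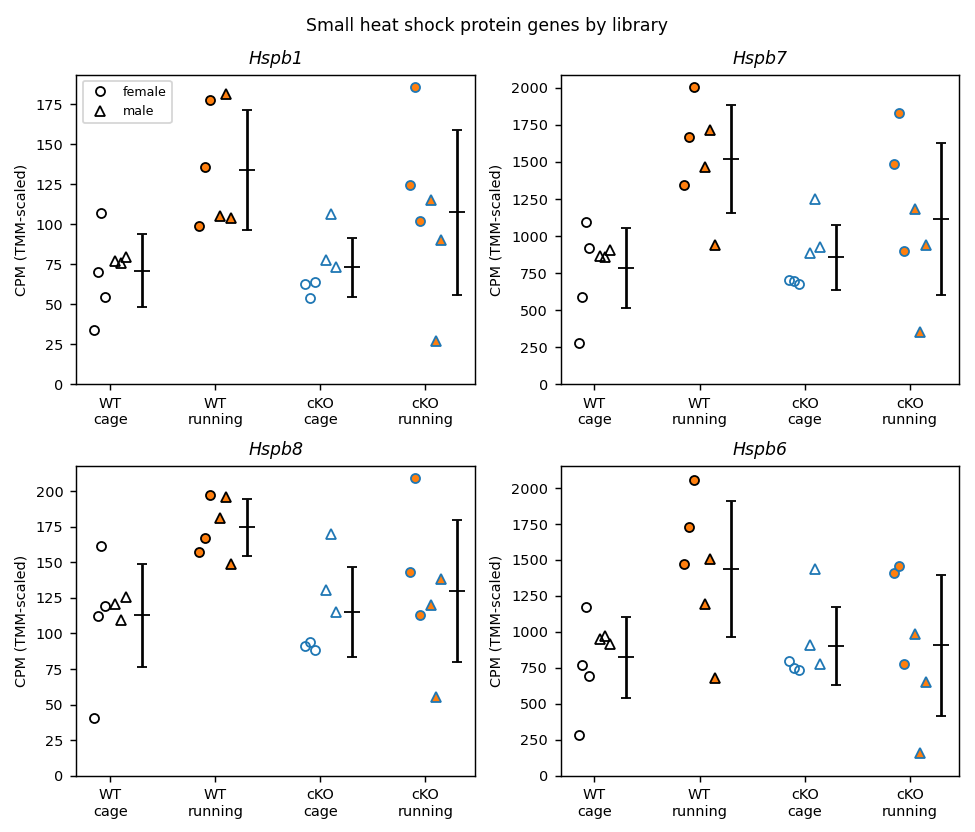
CPM (TMM-scaled) of Hspb1, Hspb7, Hspb8 and Hspb6 in each library, with symbols for sex and activity and a bar for mean ± SD. WT runners lie mostly above WT cage libraries, cKO runners are widely scattered, and cKO running male replicate 2 is the lowest cKO library in all 4 panels (26.9 CPM for Hspb1 and 157 CPM for Hspb6).

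Many chaperone genes also followed the muscle content of the libraries. A fit that adds the mean log2 CPM of the 30 muscle genes as a covariate gave each gene a slope, in log2 units per log2 unit of muscle signal. The slope was positive and called in 34 of 67 members (50.7%), against 16.8% of all genes, and negative and called in 2 members, against 13.7%. Among the Hspb genes 6 of 8 had a called positive slope, among mitochondrial J proteins 5 of 6, and among ER-resident J proteins 2 of 7. Slopes were 0.78 ± 0.14 for Hspb6, 0.65 ± 0.10 for Hspb7, 0.64 ± 0.07 for the exchange factor Hsph1 and 0.54 ± 0.05 for the J protein gene Dnajb5. Hspa1b had 0.03 ± 0.06 (adjusted p = 0.753) and Hspd1 had 0.25 ± 0.04. The called negative slopes were those of Hspa12a, an atypical HSP70 (-0.40 ± 0.08), and of the scarce small heat shock protein gene Hspb9 (-1.13 ± 0.43, adjusted p = 0.0475). Without cKO running male replicate 2 and WT cage female replicate 1, the libraries farthest from the median in muscle signal, 30 of 65 members (46.2%) had a called positive slope, against 11.7% of all genes. In that smaller set the slope of Hspb1 lost its call (0.26 ± 0.12, adjusted p = 0.137) and those of Hspb6 and Hspb7 were 0.42 ± 0.14 and 0.39 ± 0.11.

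With the muscle covariate in the fit, more members passed for running. In the mean of both genotypes 10 were called (2.38% of all genes), 8 of them higher (Hspa1a, Hspa1b, Hspb1, Hspb3, Hspb6, Hspb7, Hspb8 and Dnajb2) and 2 lower (Hspd1 and Hspa9). Hspb1 had 0.94 ± 0.16 (adjusted p = 0.00128), Hspb7 0.91 ± 0.14 (adjusted p = 0.000353) and Hspb8 0.64 ± 0.11 (adjusted p = 0.0015). Hspa1b was at 0.60 ± 0.09 and Hspd1 at -0.38 ± 0.06, both called. In this fit 8 members were called in WT (1.41% of all genes) and 2 in the cKO (0.151%), Hspa1b and Hspd1. The covariate's own genes were not constant with running in the main fit. Among its 10 slow fibre genes 1 was called higher in the mean of both genotypes and in WT. In the cKO 20 of 20 fast and 9 of 10 slow fibre genes had negative fold changes, none called. In WT 17 of 20 and 9 of 10 had positive ones. The part of muscle in the fold changes was not tested beyond this fit.

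By edgeR no HSP90 gene, ER chaperone gene or HSP110 gene was called for running, and limma-voom called Hsp90aa1 (adjusted p = 0.0447) and the HSP110 gene Hspa4 (adjusted p = 0.0476), both lower. The 3 HSP90 genes had negative fold changes, at -0.23 ± 0.09 for the inducible Hsp90aa1, -0.16 ± 0.15 for Hsp90ab1 and -0.15 ± 0.08 for Hsp90b1, the HSP90 of the ER (adjusted p = 0.223, 0.666 and 0.403). Hspa5, the ER HSP70 also called BiP, had -0.21 ± 0.09 (adjusted p = 0.257). Of the 7 ER J protein genes 5 were negative, led by Dnajb9 (-0.29 ± 0.11, adjusted p = 0.194), which binds BiP. Hsph1 had -0.32 ± 0.19 and Hspa4 had -0.24 ± 0.12 (adjusted p = 0.443 and 0.336).

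Among the 27 other J protein genes tested, 10 had positive and 17 negative fold changes, and edgeR called none. The lowest p among them belonged to Dnajc21, a factor of ribosome assembly (-0.46 ± 0.16, adjusted p = 0.166), to Dnajc4 (0.30 ± 0.11, adjusted p = 0.171) and to Dnajc2, which sits at the ribosome exit (-0.28 ± 0.10, adjusted p = 0.178). Limma-voom called all 3 (adjusted p = 0.0105, 0.0462 and 0.0343). By edgeR Dnajc21 passed without WT cage female replicate 1 (-0.52, adjusted p = 0.0447) and without a filter on low counts (adjusted p = 0.00948). The heat-inducible J protein genes did not pass, with -0.05 ± 0.15 for Dnajb1 and 0.00 ± 0.09 for Dnaja1 (adjusted p = 0.917 and 0.992).

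Genes that work with the families were examined beside them. None of 5 tested heat shock factors, 26 co-chaperones, 14 cytosolic chaperonin and prefoldin subunits or 21 ER folding genes was called for running, and their median fold changes lay between -0.06 and 0.04. Hsf1, the main factor of the heat shock response, had -0.03 ± 0.09 (adjusted p = 0.925), and the co-chaperone Bag3 had 0.29 ± 0.19 (adjusted p = 0.493). Serpinh1, the collagen chaperone of the ER, had 0.05 ± 0.10, and Cryab, a small heat shock protein outside the naming rule, had 0.11 ± 0.22 (adjusted p = 0.88 and 0.87).

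Within each genotype, no member passed for running. In WT 25 genes were called (0.131%) and 0 of 67 members by edgeR, with 14 members at an unadjusted p under 0.05, 1 called by DESeq2 (Hspa1b, with 0.82% of all genes) and 2 by limma-voom (Hspa1b and Hspb7, with 0.47%). In the cKO 8 genes were called (0.0418%) and 0 of 67 members, with 14 at an unadjusted p under 0.05, 3 called by DESeq2 (Hspa1b, Hspd1 and Hspa9, with 1.09% of all genes) and 6 by limma-voom (2%). Hspa1b came closest in both, at 0.54 ± 0.12 in WT (adjusted p = 0.0632) and 0.63 ± 0.12 in the cKO (adjusted p = 0.0534). In WT it passed without cKO running male replicate 2 (adjusted p = 0.046). In the cKO it passed without any of WT cage female replicate 1, WT running males 2 or 3, cKO running female replicate 2 or cKO running male replicate 2 (adjusted p = 0.02 to 0.0461). Hspd1 was at -0.33 ± 0.13 in WT (adjusted p = 0.403) and at -0.62 ± 0.14 in the cKO (adjusted p = 0.0865), where it passed without WT cage female replicate 1 (adjusted p = 0.0446).

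Other members had unequal values in the 2 genotypes, and the test of that difference called none. Fold changes were positive in 34 of 67 members in WT and in 19 of 67 in the cKO, with medians of 0.00 and -0.11 beside 0.00 and 0.03 for all genes. On log2(FPKM + 1) the counts were alike, 45 of 67 in WT and 44 of 67 in the cKO, with medians of 0.06 and 0.10 beside 0.03 and 0.18 for all genes. Small heat shock proteins had a median of 0.71 in WT and 0.23 in the cKO, and of 0.09 in the cKO without cKO running female replicate 3. Fitted apart by sex, with 7 of these genes, the medians in WT and the cKO were 0.70 and 0.74 in females. In males they were 0.51 and -0.40, where the cKO runners include cKO running male replicate 2 (muscle genes at 1.98% of counts). Without that library, fold changes in the mean of both genotypes were higher, at 0.85 for Hspb1 and 0.77 for Hspb7. The medians without it are not given here. Mitochondrial J proteins had a median of -0.00 in WT and -0.39 in the cKO, where all 6 were negative. The genotype-by-running interaction called 0 of 67 members and 0% of all genes by edgeR, with 5 members at an unadjusted p under 0.05 and none called by DESeq2 or limma-voom. Those 5 were Dnajb12 (-0.43 ± 0.19), Dnajc27 (-0.85 ± 0.37), Dnajc15 (-0.49 ± 0.22), Dnajc9 (-0.40 ± 0.18) and Dnaja3 (-0.53 ± 0.25), all at an adjusted p of 0.672. Hspa1a and Hspa1b summed gave -0.02 ± 0.18 (adjusted p = 0.981). Markers of other cells also moved with running in the cKO, none of them called. All 7 Schwann cell genes had positive fold changes (median 2.37), as had 5 of 5 mast cell genes (0.92), 4 of 5 mural cell genes (0.90) and 8 of 8 macrophage genes (0.49), and all 20 fast muscle fibre genes had negative ones (-0.51). Summed Schwann cell genes took 0.00389% to 0.0369% of counts in cKO cage and 0.0108% to 0.185% in cKO running. The part of these cells and of eGFP carriage in the members' values was not tested.

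**Figure D5:**
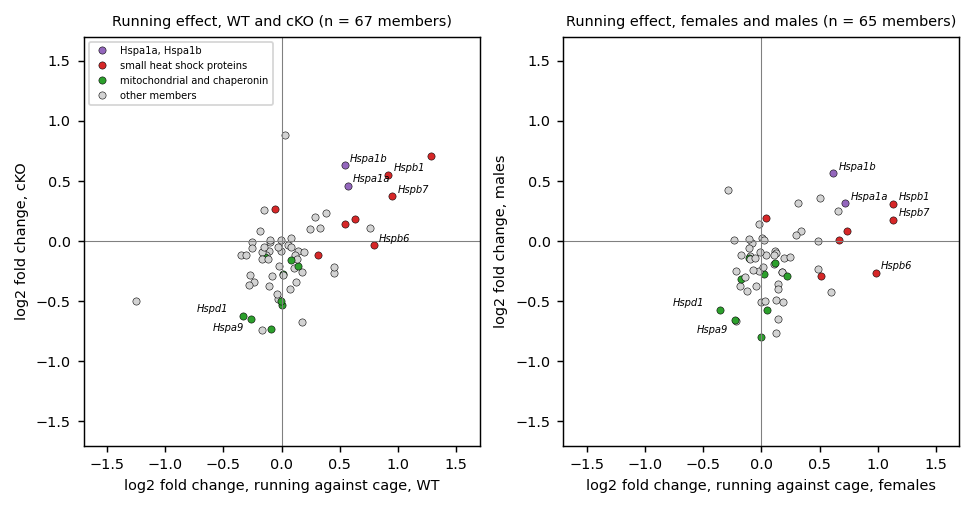
Log2 fold change of running against cage for each tested member, left in WT (horizontal) against cKO (vertical), n = 67, and right in females (horizontal) against males (vertical), n = 65. Hspa1b and Hspa1a lie in the upper right of both panels, Hspd1 and Hspa9 in the lower left, and small heat shock proteins extend further along the WT and the female axis. Differences between the axes passed no test in the main fit.

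Between the libraries labelled cKO and WT, no member was called by edgeR. Prkaa1 itself overlapped between them, as given above. At cage activity 0 of 67 members and 0% of all genes were called by edgeR for cKO against WT. No member reached an unadjusted p of 0.05, and DESeq2 and limma-voom called none. Hspa1b had -0.12 ± 0.12 and Hspd1 had 0.08 ± 0.13 (adjusted p = 1 for both), and CPM values of the genotypes overlapped for every member, whereas they were separate for 0.047% of all genes. In the mean of both activities 1 gene (0.00522%) and 0 of 67 members were called, with 1 member at an unadjusted p under 0.05 and none by DESeq2 or limma-voom. That member was Dnajc24, which acts in diphthamide synthesis (0.46 ± 0.17, adjusted p = 0.981), at medians of 3.47 CPM in WT cage, 3.2 in WT running, 4.34 in cKO cage and 3.66 in cKO running.

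In runners 0 of 67 members and 0% of all genes were called for cKO against WT by edgeR, and DESeq2 and limma-voom called no member. At an unadjusted p under 0.05 stood 9 members (13.4%), all lower in the cKO, against 11.3% of all genes. They were Dnajc15, Dnajc27, Dnajc9, Dnaja3, Dnajb12, Dnajb6, Dnaja4, Hsp90ab1 and Hspa1l, with log2 fold changes from -0.68 to -0.28. The fold change was negative in 47 of 67 members, with a median of -0.15 beside 0.01 for all genes, and in 24 of 67 at cage activity. In runners the median was -0.05 without cKO running male replicate 2 and -0.03 with the muscle covariate. On log2(FPKM + 1) it was 0.04, with 37 of 67 positive, beside 0.12 for all genes. All 6 mitochondrial J proteins were negative (median -0.31) and so were 6 of 8 small heat shock proteins (median -0.40). CPM values of the genotypes overlapped for every member, and were separate for 0.376% of all genes. Muscle genes took a median of 4.75% of counts in cKO runners and 7.08% in WT runners. The median fold change was 1.68 for 5 mural cell genes, 1.58 for 7 Schwann cell genes and 1.11 for 5 mast cell genes, all positive and none called, and the part of these cells was not tested.

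No member passed the test between males and females. Of all genes 0.616% were called by edgeR and 0 of 67 members, with 3 members at an unadjusted p under 0.05, all higher in males, 0 called by DESeq2 and 1 by limma-voom (2.31% of all genes). The 3 were Dnajc13, which works on endosomes (0.14 ± 0.06, adjusted p = 0.373), Dnajc2 (0.25 ± 0.10, adjusted p = 0.378), called by limma-voom, and Hspa12b, an HSP70 relative of endothelium (0.22 ± 0.10, adjusted p = 0.466). Outside the families, the co-chaperone Fkbp5, a glucocorticoid-responsive partner of HSP90, was higher in males. It stood at 10.4, 18.4 and 55 CPM in females and at 31.3, 37.1 and 71.2 CPM in males as lowest, median and highest, overlapping, with a log2 fold change of 1.00 ± 0.20 (edgeR, adjusted p = 0.00901).

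The response to running leaned apart in the sexes without a call in the main fit. The sex-by-running interaction called 0 of 67 members and 0% of all genes by edgeR, and none by DESeq2 or limma-voom. At an unadjusted p under 0.05 stood 16 members (23.9%) and 12.2% of all genes. The interaction was negative, meaning a lower response in males, in 55 of 67 members, with a median of -0.26 beside 0.06 for all genes. On log2(FPKM + 1) 28 of 67 were positive, with a median of -0.06 beside 0.18 for all genes. Lowest p-values were those of Dnaja4 (-1.01 ± 0.36, adjusted p = 0.37), Dnajb2, a J protein of neurons and muscle (-0.49 ± 0.18, adjusted p = 0.37), and Hspb6 (-1.25 ± 0.46, adjusted p = 0.37). Without a filter on low counts edgeR did call members, led by Dnaja4 (-1.02, adjusted p = 0.000543) and Hspb6 (-1.25, adjusted p = 0.000753). Of those called, only Hspa12a was positive (0.71, adjusted p = 0.0397). The share of all genes called in that fit is not given here.

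Fitted apart, the fold change of running was positive in 40 of 65 members in females (median 0.04) and in 18 of 66 in males (median -0.17). Hspb6 was at 0.98 ± 0.26 in females and -0.27 ± 0.35 in males, and Hspb1 at 1.13 ± 0.23 and 0.31 ± 0.28 (adjusted p = 0.272, 0.712, 0.121 and 0.567). Hspa1b was at 0.62 ± 0.13 in females and 0.56 ± 0.12 in males. Muscle genes took 4.59% to 7.84% of counts in running females and 1.98% to 9.53% in running males, and 2.37% to 7.5% in cage females and 5.7% to 7.23% in cage males. The interaction had a median of 3.13 for 7 Schwann cell genes and -1.07 for 10 slow muscle fibre genes, none called. The part of these cells in the values was not tested.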

How the data were processed

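RSEM expected counts and FPKM were deposited by the authors as gene tables. The counts were whole numbers throughout (100% of values) and were used unrounded. The submitters' processing notes list RSEM 1.3.3, STAR 2.7.8a, FastQC 0.11.8 and, for trimming, cutadapt 2.3, with the GRCm38 (mm10) build. Annotation release and strand are not given in the sources used here. Per the labels' protocols, tissue was broken up in TRIzol and RNA was column-purified with DNase.

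From the deposited counts, 4 reporter entries left out, edgeR 4.0.16 (R 4.3.3) used TMM scaling, its expression filter on the 4 groups, and quasi-likelihood tests with 4 group means and sex (8 group means for sex by running). P-values are two-sided and adjusted by Benjamini-Hochberg over the 19155 genes tested. Errors beside fold changes are SE. CPM are TMM-scaled. Levels between genes use the deposited FPKM. Positions come from GENCODE M21 (73 of 73 members matched), promoters from RefSeq.

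Members and lists were chosen with earlier results of these data known. The values of 1 untested member are not reported here. The named members are those called, the 3 of smallest p in each direction per comparison, 17 canonical genes, the 2 highest in FPKM per role, and related genes named in the lists; others, such as Dnajb5, Hspb2, Hspb3, Hspb9 and Hspb11, were named after their values were seen. The fitting code was tested on simulated counts. Alternatives were RLE scaling, other filters, DESeq2 1.42.0, limma 3.58.1 (voom with library weights, or log2 of FPKM plus 1 or 0.1), covariates, a replicate block and subsets of libraries. The labels do not say that replicate numbers pair libraries, and the main fits did not pair them. Libraries with the same number and sex in other groups had a median correlation of -0.10 in their deviations over 34 pairs. Over 83 pairs with other numbers it was 0.01. These medians cannot show that the libraries were unpaired, because single pairs varied widely.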

Additional observations from a re-analysis of the deposited data

Results flagged for a closer look

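Over 17 named members and 4 groups, 68 groups of values were examined for a library far from the rest of its group, and 7 stood out, where chance alone gives about 1 in 20. WT cage female replicate 1 accounted for 4 of the 7. It was lowest for Hsph1 (13.1 CPM, next library 35.8 CPM), Hsp90ab1 (448 CPM, next 764 CPM) and Hspb8 (40.6 CPM, next 110 CPM), and highest for Dnajb1 (14.5 CPM, next 9.49 CPM). That library also had the lowest muscle share of its group (2.37%). In cKO cage, Hspb6 was highest in cKO cage male replicate 2 (1439 CPM, next 907 CPM), which had the highest muscle share of that group (7.23%), and Dnaja1 was lowest in cKO cage female replicate 1 (30.6 CPM, next 39.6 CPM). In cKO running, Hspa5 was highest in cKO running female replicate 3 (233 CPM, next 184 CPM). The part of muscle content in these values was not tested.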

How the results depend on the processing

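For the running mean, 3 members were called, against 7 without a filter on low counts, 6 with DESeq2, 12 with limma-voom, 6 with log2(FPKM + 1) and 6 with log2(FPKM + 0.1), 10 with the muscle covariate, 1 with the mitochondrial rRNA covariate, and 0 with the eGFP covariate, in females only or in males only. Leaving out each library gave 2 to 5. For running in WT (0 called), 2 were called without a filter, 1 with the filter of 1 CPM in 6 libraries, 1 with DESeq2, 2 with limma-voom, 8 with the muscle covariate and 1 with the rRNA covariate, and 0 to 1 with each library left out. For running in the cKO (0 called), 1 was called with RLE scaling, 5 without a filter, 1 with the 1 CPM filter, 3 with DESeq2, 6 with limma-voom, 2 with the muscle covariate and 1 without the 2 libraries that stood apart, and 0 to 2 with each library left out. Without a filter, 1 member was called for cKO against WT in runners and 9 for sex by running, and limma-voom called 1 for male against female. For the running mean, the share of all genes called was 1.43% in the main fit. It was 3.33% with DESeq2, 4.76% with limma-voom and 2.38% with the muscle covariate. Where these alternatives called members in other comparisons, the share is given above. For the other alternatives listed here the share is not given, so their counts cannot be set against all genes. The cause of the differences was not tested. Among 55 results for single named members, 2418 of 2422 alternative values kept their direction, which does not hold for all members: on log2(FPKM + 1) the number with positive values went from 26 to 45 of 67 for the running mean and from 45 to 17 for male against female. The 4 reversed values, none called, were Hspa12b for genotype in females only (-0.00325) and Dnajc13 for male against female with FPKM (-0.12, -0.13 and, without a filter, -0.12).

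With the replicate block, Hspa1a lost its call for running (0.51, adjusted p = 0.0521), which left 2 members called. All genes called fell from 273 to 158 for the running mean and from 8 to 3 in the cKO, and the block changed no other member's call. A fit without libraries carrying eGFP was not run for comparisons that need cKO runners, since all of them carry it. At these depths members with few counts, such as Hspb9, cannot be resolved.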
